A study of Homo sapiens with 18 samples.

Results

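RN7SK, 7SL and other structured RNAs without a poly(A) tail were followed across the libraries of an opioid treatment study. The 7 RNAs were RN7SK, RN7SL1, RN7SL2, RMRP, RPPH1, SCARNA2 and SCARNA10. They were taken by name as rows of the deposited count table, 7 of its 58735 genes. They were chosen by their counts per library, seen in earlier results of these data, as a gauge of what each library contains across library codes and treatment groups. Their levels between libraries and library codes are therefore given as a description, and the counts of them in any comparison support nothing by themselves. RMRP has 2 gene IDs in the table with equal counts in all 18 libraries and was counted once. Of the 7 RNAs, 6 passed the filter on low counts and were tested. SCARNA10 did not pass it, with 16 reads in all.

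These RNAs work as the cores of ribonucleoprotein particles. RN7SK encodes 7SK, a nuclear RNA that with HEXIM proteins and LARP7 holds the elongation kinase P-TEFb inactive. RN7SL1 and RN7SL2 encode 7SL, the scaffold of the signal recognition particle that brings ribosomes making secreted and membrane proteins to the endoplasmic reticulum. RPPH1 is the catalytic RNA of RNase P, which trims precursor transfer RNAs, and RMRP is the RNA of the related RNase MRP, which takes part in ribosomal RNA processing. SCARNA2 and SCARNA10 belong to the small Cajal body RNAs, which guide chemical modification of spliceosomal RNAs. 7SK, 7SL, RPPH1 and RMRP are made by RNA polymerase III.

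The cells were SH-SY5Y, an established human neuroblastoma line of wild-type genotype, and had been differentiated over 7 days in 10 µM ATRA (all-trans retinoic acid), the water controls included. Each treatment lasted 15 min: water (the Control group), morphine at 193 nM, metamorphine at 169 nM, or TRV130, beta-endorphin or naloxone at 200 nM. Morphine, TRV130 and beta-endorphin are opioid receptor agonists and naloxone is an antagonist. There were 18 libraries, 3 in each of 6 groups, numbered 1 to 3. The labels do not say that they came from separate cultures, so a p-value here reflects only how much these libraries differ from each other, which may be technical. The library names end in number codes, called here A, B and C, and the labels do not say what these stand for. Each group has 1 library of each code, except TRV130. The names of TRV130 1 and TRV130 2 have the digits of code A with 1 more digit in front. The headers of their count columns give the digits of code A without it, so these libraries were placed in code A. TRV130 3 carries code B. The labels do not state whether poly(A) RNA was selected before sequencing.

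Totals ran from 21211449 to 33123855 counts per library. The 11 neuroblastoma and neuronal markers summed here, among them DBH and CHGA, were all above 1 CPM (counts in 1000000), and their summed level was 5885 to 8145 CPM in the 18 libraries. Control 1 stood apart: it held 20888 reads in 3647 protein-coding genes whose median was 0 reads, against 276 to 3074 in the other libraries. It also had the highest summed levels of immune (17.5 CPM), epithelial (21.4 CPM) and glial (13.9 CPM) markers. Its fibroblast markers, at 180 CPM, were below the median library (236 CPM), and Beta-endorphin 2 was highest for these at 323 CPM. Control 2 stood apart in the RNAs described here and Metamorphine 2 in 7SL, so values are given with and without them. In bulk RNA, fewer cells carrying an RNA and less of it per cell cannot be told apart.

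The sequence below is from a GENCODE 29 transcript on GRCh38. RN7SK lies at chr6:52995621-52995948 on the plus strand. Its leading 120 bases, chr6:52995621-52995740, are shown because the hairpin there carries the repeated GATC (GAUC in RNA) known as the landing site of HEXIM. Capitals mark these letters.

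RN7SK: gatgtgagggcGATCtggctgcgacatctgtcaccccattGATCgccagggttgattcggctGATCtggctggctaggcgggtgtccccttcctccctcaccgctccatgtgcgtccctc

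GATC, which reads the same on both strands, starts at positions 12, 41 and 63 of the 328 bases, and all 3 matches lie in the first 100 bases. Of 203677 GENCODE transcripts, 0.286% have as many in their first 100 bases. A match is a description of the sequence and not a measured binding site.

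The 7SL genes, both on chromosome 14, with RN7SL1 on the plus strand and RN7SL2 on the minus strand, are nearly identical, which bears on how reads could be assigned. They are 98.3% identical over 300 aligned positions and share an unbroken run of 205 bases. Stretches of 150 bases, the length of 1 read, were looked up in annotated genes that do not overlap the RNA itself. Of these stretches, 66.0% in RN7SL1 and 65.6% in RN7SL2 occur in such a gene, against 0% for the other 5 RNAs. The split of reads between RN7SL1 and RN7SL2 is therefore uncertain, and their sum is the firmer value.

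RMRP lies at chr9:35657754-35658017 on the minus strand, RPPH1 at chr14:20343075-20343407 on the minus strand, SCARNA2 at chr1:109100193-109100612 on the plus strand and SCARNA10 at chr12:6510222-6510551 on the plus strand. Lengths of the 7 RNAs run from 264 to 420 bases. Several have a duplicate row in the annotation: RN7SK and the row named 7SK, and RN7SL1 and AL139099.4, have equal counts in 18 of 18 libraries, and SCARNA2 and ENSG00000270066 in 17 of 18. RN7SL1 also lies in an intron of RPS29 on the opposite strand, and the libraries carry no strand. RPPH1 lies in an exon of ENSG00000259001, which had 12 to 63 reads against 2 to 28 for RPPH1, so reads of the pair cannot be fully separated. SCARNA10 lies in an intron of NCAPD2, with 1595 to 3182 reads, and intron reads of that gene cannot be told apart from SCARNA10.

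7SL made up most of the signal. RN7SL1 and RN7SL2 together took 74.5% to 98.8% of the reads of the 7 RNAs in each library, and their level varied widely within Control and within the metamorphine group. Levels are CPM after trimmed-mean (TMM) scaling. RN7SL2 stood at 22.3, 333 and 29.8 CPM in Control 1, 2 and 3, at 23.3, 32.3 and 4.66 CPM in the morphine libraries, and at 30.8, 222 and 20.8 CPM in the metamorphine libraries. It stood at 47.7, 48.0 and 77.9 CPM with TRV130, at 22.2, 13.7 and 35.5 CPM with beta-endorphin, and at 21, 18.2 and 36.5 CPM with naloxone. Control 2 and Metamorphine 2 were far above their own groups, and every group overlapped Control. The TRV130 libraries were close to each other and above all morphine, beta-endorphin and naloxone libraries.

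RN7SL1 had a similar pattern at a lower level. It stood at 11.8, 197 and 22.4 CPM in Control, at 14.4, 18.9 and 5.58 CPM with morphine, and at 15.5, 120 and 13.6 CPM with metamorphine. With TRV130 it was 27.9, 25.1 and 40.5 CPM, with beta-endorphin 13.3, 8.52 and 19.5 CPM, and with naloxone 11.7, 11.4 and 21.6 CPM. Control 2 and Metamorphine 2 were again highest, and Morphine 3 was lowest.

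RN7SL2 took the smaller part of the pair's reads in Morphine 3 alone among the 18 libraries. It took 57.1% to 66.5% of the reads of the pair in 17 libraries. In Morphine 3 it took 45.5% (121 of 266 reads, exact 95% binomial interval 39.4% to 51.7%), and the lowest lower bound of the other libraries was 54.2%. The other 17 libraries were not all alike either: Control 3, at 57.1% (54.2% to 59.9%), had an interval wholly below that of Control 2 (61.9% to 63.6%). These intervals cover counting error only, since the counts carry no molecular identifiers. Control 2 (7515 against 4461 reads) and Metamorphine 2 (5442 against 2950 reads) had a split inside the range of the others, at 62.8% and 64.8%.

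**Figure D1:**
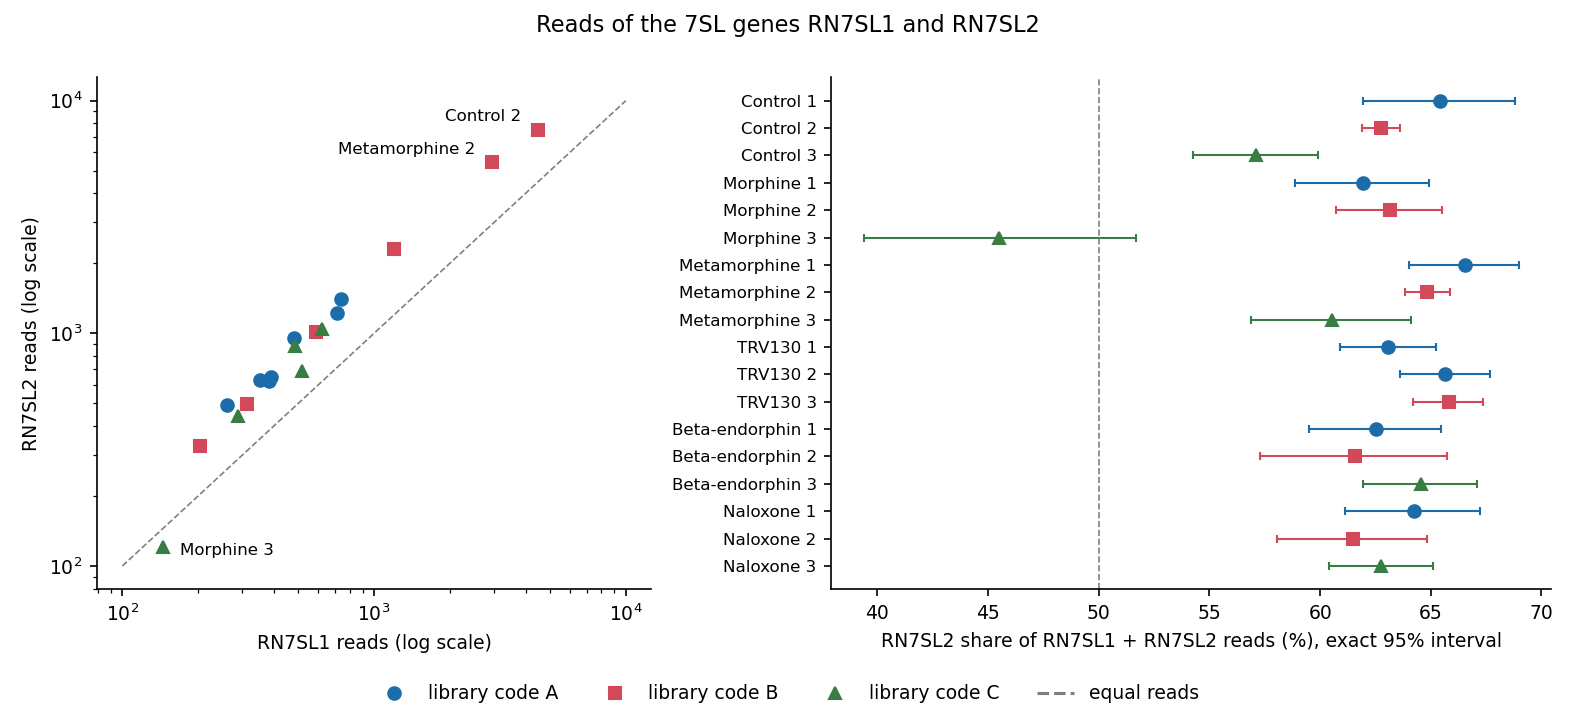
Left: reads of RN7SL2 against reads of RN7SL1 in each of 18 libraries, both axes logarithmic; 1 point is 1 library, coloured by library code, and the dashed line marks equal reads. Right: RN7SL2 as a percentage of the reads of both genes, with exact 95% binomial intervals; Morphine 3, at 45.5%, lies below the other 17 libraries, which span 57.1% to 66.5%.

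RN7SL3, a further 7SL gene 97.7% identical to RN7SL1, was counted at 0.370% to 3.34% of the RN7SL1 and RN7SL2 reads in the 15 libraries outside the beta-endorphin group. In the beta-endorphin libraries it was 3.01% to 5.14%, so the ranges overlap through Metamorphine 2, at 3.34%. Control 2 and Metamorphine 2 held 260 and 280 RN7SL3 reads. The copies are so alike that this share is as uncertain as the split above.

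7SK had its highest level in Control 2 too, but not in Metamorphine 2. RN7SK stood at 1.04, 21.9 and 5.58 CPM in Control, at 3.11, 2.43 and 2.54 CPM with morphine, and at 2.12, 2.61 and 4.17 CPM with metamorphine. It stood at 6.42, 6.44 and 2.70 CPM with TRV130, at 0.756, 1.3 and 2.10 CPM with beta-endorphin, and at 1.03, 0.731 and 2.23 CPM with naloxone. Control 1 was among the lowest libraries and Control 2 the highest, so the Control range held every ligand library but 3 of the beta-endorphin and naloxone groups. All 6 beta-endorphin and naloxone libraries lay below all 3 morphine libraries. The ratio of RN7SL1 to RN7SK reads was lowest in Morphine 3, at 2.20, and highest in Metamorphine 2, at 46.1, and it was 9.03 in Control 2. High 7SL therefore came with high 7SK in Control 2 but not in Metamorphine 2.

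Ordered by mean, RN7SK ran from Control (9.49 ± 11 CPM, SD, n = 3) through TRV130 (5.19 ± 2.15), metamorphine (2.97 ± 1.07) and morphine (2.69 ± 0.365) to beta-endorphin (1.38 ± 0.676) and naloxone (1.33 ± 0.795). Of these neighbours, only morphine and beta-endorphin did not overlap. Control and TRV130, metamorphine and morphine, and beta-endorphin and naloxone differed by less than the larger SD of each pair.

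RMRP, the RNase MRP RNA, was counted at 0 to 43 reads per library. It stood at 0, 1.90 and 0.476 CPM in Control, at 0.187, 0.160 and 0.308 CPM with morphine, and at 0.258, 0.489 and 0.237 CPM with metamorphine. It stood at 0.509, 0.443 and 0 CPM with TRV130, at 0.206, 0.167 and 0.0404 CPM with beta-endorphin, and at 0.133, 0.0731 and 0.454 CPM with naloxone. Control held both the highest library and 1 of the 2 libraries with no read, where up to 3 reads, or 0.135 CPM in Control 1, would be missed, and no ligand group separated from it.

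RPPH1, the RNase P RNA, had 2 to 28 reads and was the exception to the Control 2 pattern. It stood at 0.632, 0.443 and 0.389 CPM in Control, at 0.15, 0.480 and 0.385 CPM with morphine, and at 0.225, 0.285 and 0.57 CPM with metamorphine. It stood at 1.10, 0.375 and 0.405 CPM with TRV130, at 0.240, 0.0836 and 0.161 CPM with beta-endorphin, and at 0.133, 0.0731 and 0.175 CPM with naloxone. TRV130 1 was highest, and all beta-endorphin and naloxone libraries lay below all Control libraries.

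SCARNA2 had 2 to 52 reads. It stood at 1.13, 2.30 and 0.519 CPM in Control, at 0.300, 0.352 and 0.270 CPM with morphine, and at 0.386, 0.611 and 0.142 CPM with metamorphine. It stood at 0.431, 0.477 and 0.506 CPM with TRV130, at 0.0687, 0.627 and 0.282 CPM with beta-endorphin, and at 0.233, 0.110 and 0.244 CPM with naloxone. Morphine, TRV130 and naloxone libraries lay below all 3 Control libraries, by the narrowest margin with TRV130 (0.506 against 0.519 CPM). SCARNA2 was below the Control library of the same code in 15 of 15 ligand libraries, as were 2.79% of tested genes. The corresponding numbers were 12 for RPPH1, 11 for RN7SK, 10 for RN7SL1, 9 for RN7SL2 and 9 for RMRP.

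SCARNA10 was at the limit of detection. It had 0 reads in 10 libraries, among them all 3 TRV130 libraries, where up to 3 reads per library would be missed (0.101 to 0.117 CPM). The beta-endorphin libraries had 3, 4 and 2 reads, and no other library had more than 2. At this depth no difference between groups could be detected.

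**Figure D2:**
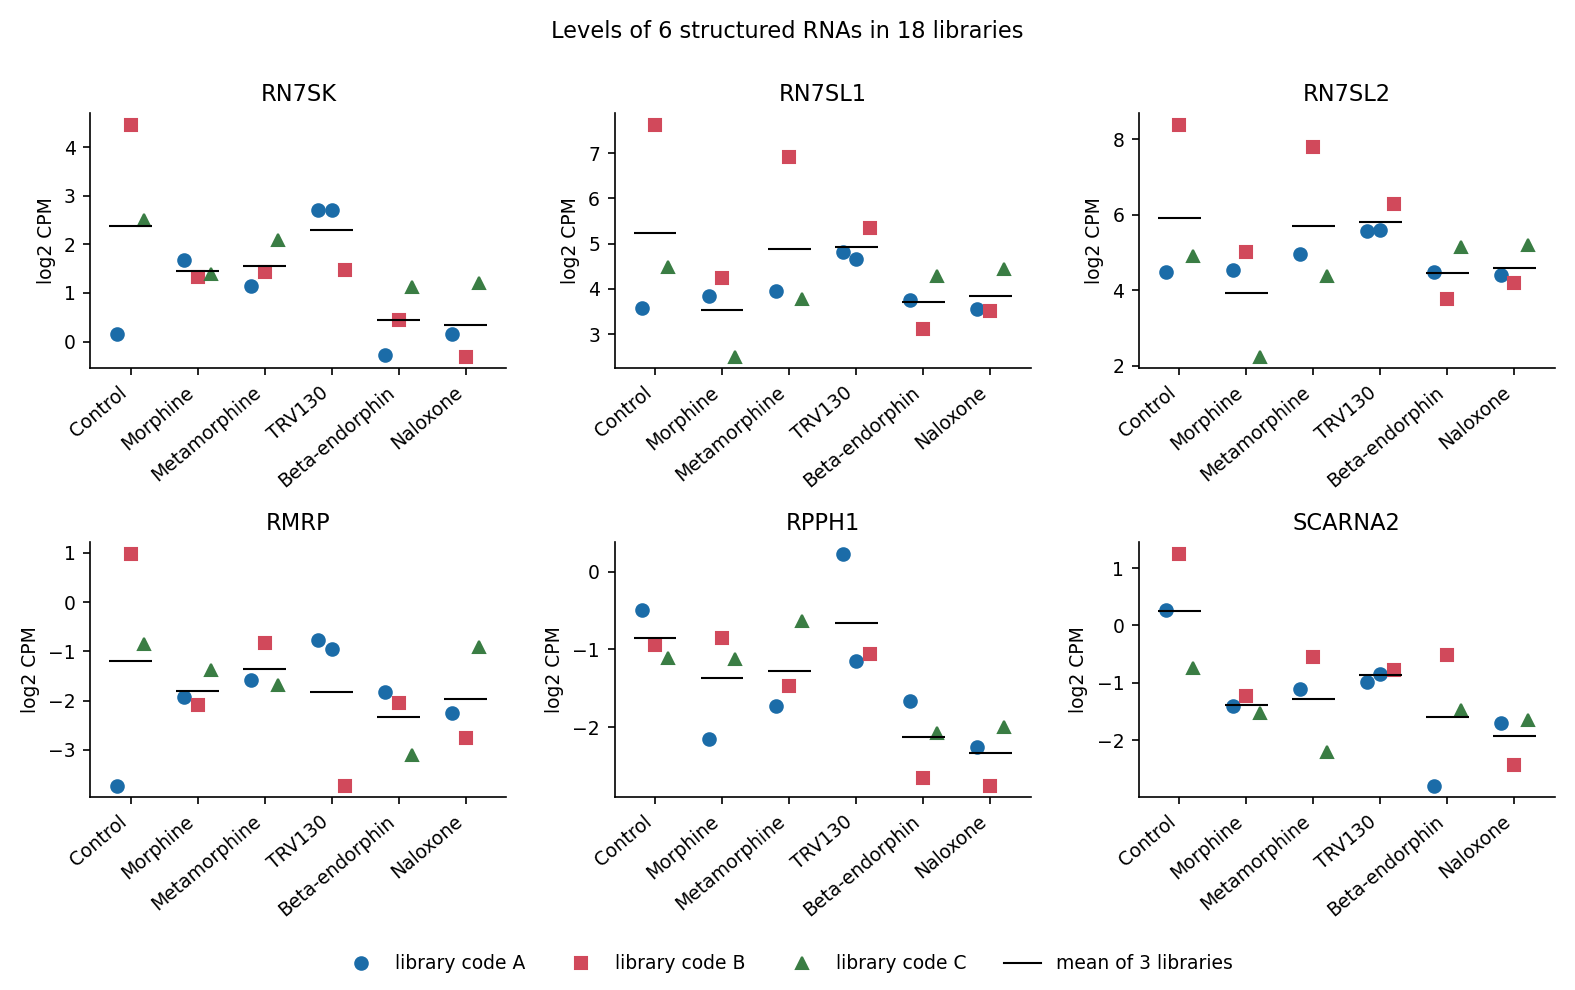
Levels of the 6 tested RNAs in each library, as log2 CPM (TMM scaling, prior count of 2), by treatment group; 1 point is 1 library, its shape and colour give the library code, and the bar is the mean of 3 libraries. Control 2 is the highest point for every RNA but RPPH1, and Metamorphine 2 lies above its group for RN7SL1 and RN7SL2.

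Per kilobase of RNA, the mean level over the 18 libraries was 192 CPM for RN7SL2, 111 for RN7SL1 and 11.7 for RN7SK, and 1.05 to 1.27 CPM for RMRP, SCARNA2 and RPPH1. SCARNA10 was at 0.104 CPM per kilobase. The 7SL genes were thus far above the rest on this scale.

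The levels spread widely. The SD of log2 CPM over the 18 libraries was 1.39 for RN7SL2, 1.25 for RN7SL1, 1.2 for RN7SK, 1.16 for RMRP, 0.95 for SCARNA2 and 0.79 for RPPH1, and the median over all tested genes was 0.39. RN7SL2 varied more than 99.4% of tested genes and RN7SK more than 98.2%. RPPH1, SCARNA2 and RMRP are low, and the median SD of 1556 tested genes with a mean of 8 to 13 reads was 0.75. RPPH1 was close to that value.

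Control 2 carried 28.8% and Metamorphine 2 19.5% of the 43637 reads of the 7 RNAs. Control 2 was the highest library for 5 of the 6 tested RNAs, as it was for 12.6% of all tested genes. It stood above the next highest library 3.74-fold for RMRP, 3.40-fold for RN7SK, 2.04-fold for SCARNA2, 1.64-fold for RN7SL1 and 1.5-fold for RN7SL2. Against the median of the other 17 libraries, it was 12.7-fold higher for RN7SL1, 11.2-fold for RN7SL2 and 9.0-fold for RN7SK, but 1.55-fold for RPPH1.

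The study's main question was what each ligand changes against water. In the 5 comparisons with Control, the fitted log2 fold changes of the tested RNAs were below 0 in 6 of 6 with morphine, metamorphine, beta-endorphin and naloxone and in 5 of 6 with TRV130, but none passed the test. The 5 comparisons share the 3 Control libraries, Control 2 among them, so they are not separate evidence. By edgeR's quasi-likelihood test with Benjamini-Hochberg adjustment over 23231 genes, 0 of 6 were called in each comparison, against a background of 0% of all tested genes. DESeq2 also called 0 of the 6. It called 1 gene with TRV130 and 3 with beta-endorphin among all genes, and gave no p-value for RN7SL2.

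At an unadjusted p under 0.05 in edgeR, 4 of the 6 RNAs stood out with morphine (4.06% of all tested genes), 2 with metamorphine (7.83%), 1 with TRV130 (1.85%), 5 with beta-endorphin (9.46%) and 5 with naloxone (6.65%). Nothing is read from these shares, because the RNAs were picked with the libraries' levels in view. With beta-endorphin, RN7SK had a log2 fold change of -2.78 (SE 0.76), with an adjusted p of 0.513 by edgeR's quasi-likelihood test. With naloxone it was -2.83 (SE 0.76, adjusted p 0.655 by the same test), and SCARNA2 was at -2.71 (SE 0.70, adjusted p 0.655). With morphine, RN7SL2 was at -2.67 (SE 1.01), RN7SL1 at -2.58 (SE 0.94) and SCARNA2 at -2.08 (SE 0.67), each with an adjusted p of 0.823 by edgeR.

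Metamorphine and TRV130 gave the smaller values. With metamorphine, RN7SK was at -1.68 and SCARNA2 at -1.77, whereas RN7SL1 was at -0.63 (95% interval -2.51 to 1.24) and RN7SL2 at -0.49 (-2.50 to 1.52). With TRV130, 7SL was at -1.31 and -1.15, RN7SK at -0.87 and RPPH1 at 0.35, all with an adjusted p of 1.00 by edgeR's quasi-likelihood test. RPPH1 had its lowest values with naloxone, -1.90 (SE 0.65), and beta-endorphin, -1.54 (SE 0.64), and RMRP with beta-endorphin, -2.47 (SE 1.2). Neither RNA was called. The intervals were wide, so sizeable differences in either direction were not detectable at this spread. In the test of any difference among the 6 groups, edgeR also called 0 of 6 (0% of all tested genes), with 4 of 6 at an unadjusted p under 0.05 (2.43%).

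These values rested on Control 2. Without it, the median log2 fold change of the 6 RNAs moved from -1.96 to -0.38 with morphine, from -0.95 to 0.14 with metamorphine, from -1.23 to 0.51 with TRV130, from -2.45 to -1.01 with beta-endorphin and from -2.36 to -0.75 with naloxone. The number of the 6 below 0 went from 6 to 6, 6 to 3, 5 to 1, 6 to 6 and 6 to 6 in the same order, and the median of all genes stayed within 0.1 of 0 in both fits. With Control 2 left out, the 7SL genes moved most: RN7SL2 was at -0.37 with morphine, at -0.13 with beta-endorphin and at -0.05 with naloxone, and turned to 1.81 with metamorphine and to 1.15 with TRV130. RN7SK stood at -1.27 with beta-endorphin and at -1.31 with naloxone without Control 2, and at 0.64 with TRV130. With Control 2 kept, and without Control 1, Naloxone 1 and Naloxone 2, the 3 libraries with the most reads in protein-coding genes whose median was 0, the medians were -2.37, -1.49, -1.58, -2.94 and -2.26.

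RPPH1 and SCARNA2 depended less on that library. Without Control 2, RPPH1 was at -1.61 (SE 0.72) with beta-endorphin and at -1.96 (SE 0.73) with naloxone, against -1.54 and -1.90 with all libraries. SCARNA2 was at -2.04 (SE 0.72) with naloxone and at -1.40 (SE 0.70) with morphine, against -2.71 and -2.08 with all libraries. The adjusted p by edgeR was 0.225 to 0.371 for these 4 values. Metamorphine 2 decided the 7SL values of its group in the other direction: without it and with Control 2 kept, RN7SL1 was at -2.39 and RN7SL2 at -2.29 against Control.

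**Figure D3:**
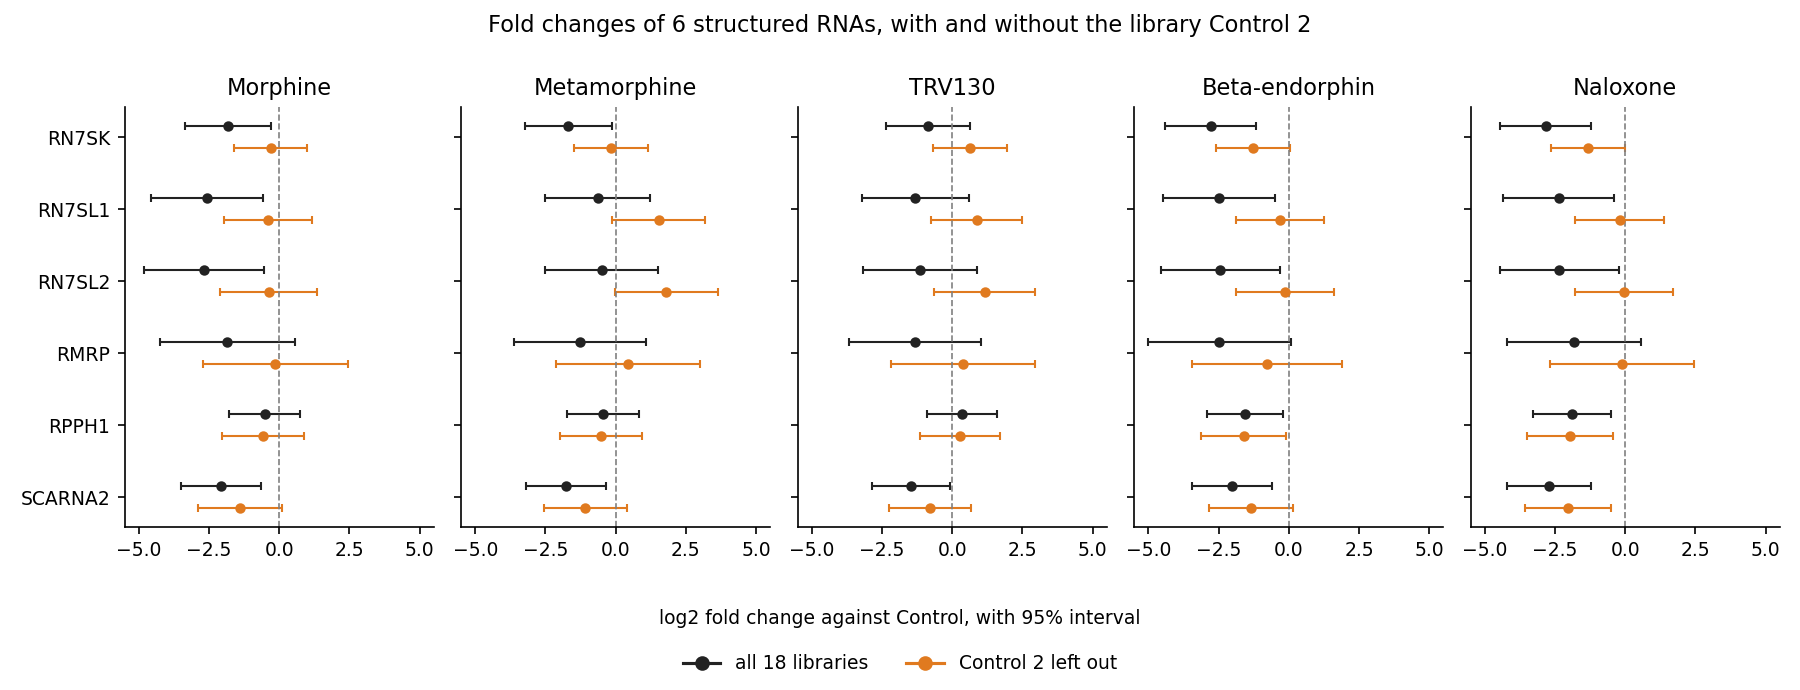
Log2 fold change of each of the 6 tested RNAs against Control, with its 95% interval, in 5 panels, 1 per ligand; black points are the fit on all 18 libraries and orange points the fit with Control 2 left out, and the dashed line marks no difference. Most black points lie left of the line. Without Control 2 the points of RN7SK, RN7SL1, RN7SL2, RMRP and SCARNA2 move right while RPPH1 hardly moves.

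Without overlap of their 3 libraries with the 3 of Control, RNAs were lower as follows. With morphine and with TRV130 it was SCARNA2, 1 of 6, where 2.2% and 1.75% of all tested genes were lower without overlap. With beta-endorphin it was RPPH1, 1 of 6 (4.52% of genes), with naloxone RPPH1 and SCARNA2, 2 of 6 (3.5%), and with metamorphine 0 of 6 (4.15%). None was higher without overlap, as were 2.98%, 5.2%, 1.71%, 6.06% and 4.34% of all tested genes with morphine, metamorphine, TRV130, beta-endorphin and naloxone. RN7SK, RN7SL1, RN7SL2 and RMRP overlapped Control with every ligand, since Control 1 was low for them and Control 2 high.

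Set against morphine, the reference opioid, metamorphine and TRV130 had fitted values above 0 for 6 of 6 RNAs, and beta-endorphin and naloxone for 3 of 6. None was called (0% of all tested genes in each of these 4 comparisons by edgeR, and 0 by DESeq2). The doses differ between these groups, so these values compare the treatments as given. At an unadjusted p under 0.05 there were 1, 0, 0 and 1 of the 6 with metamorphine, TRV130, beta-endorphin and naloxone, against 0.323%, 1.18%, 0.336% and 0.349% of all tested genes.

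7SL was higher with TRV130 than with morphine in all libraries: RN7SL2 had a log2 fold change of 1.52 (SE 0.97) and RN7SL1 of 1.27 (SE 0.90), with an adjusted p of 1.00 by edgeR's quasi-likelihood test. RN7SL1, RN7SL2 and SCARNA2, 3 of 6, were higher there without overlap, as were 4.89% of all genes, and 0 of 6 were lower (5.73%). With metamorphine the 7SL values of 1.94 and 2.18 against morphine came to 0.18 and 0.37 without Metamorphine 2, and 0 of 6 were apart from morphine without overlap in either direction (1.9% of genes lower, 1.58% higher). RN7SK was at -0.96 with beta-endorphin and at -1.01 with naloxone against morphine, not called, and its libraries did not overlap those of morphine in either comparison. It was the only one of the 6 lower without overlap with beta-endorphin (1.92% of genes, and 1.87% higher), and with naloxone SCARNA2 joined it, 2 of 6 (1.58%, and 1.18% higher). Naloxone also had RPPH1 at -1.38 (SE 0.65), with an adjusted p of 1.00 by edgeR.

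Across library codes, which the choice of these RNAs used, levels are described without a test. The mean log2 CPM of the 7 RNAs was 0.33 (SD 0.49, 7 libraries) in code A, 0.77 (SD 1.18, 6 libraries) in code B and 0.27 (SD 0.36, 5 libraries) in code C. Code B was 0.44 above code A and code C 0.06 below it, both less than the SD within code B. Without Control 2, code B was 0.04 above code A. With the 3 TRV130 libraries left out, code B was 0.76 and code C 0.23 above code A. In the fit with group and code, 0 of the 6 tested RNAs were among the genes called between codes, which were 26.9% of all tested genes for B against A, 33.2% for C against A and 54.8% for C against B. Nothing is read from that count.

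Within codes, the ligand libraries are given by their side of the 1 Control library of that code. In code A, RMRP was higher than Control 1 in 6 of 6 ligand libraries and SCARNA2 lower in 6 of 6, where 34.7% of all tested genes were higher and 31.0% lower in all 6. RN7SL1 was higher in 5 of 6, RN7SK and RN7SL2 in 4 of 6, and RPPH1 lower in 5 of 6. Without TRV130 1 and TRV130 2, a choice made after seeing the data, RMRP was higher in 4 of 4, SCARNA2 and RPPH1 were lower in 4 of 4 (42.6% of genes higher and 41.1% lower in all 4), RN7SL1 was higher in 3 of 4, and RN7SK and RN7SL2 were higher in 2 of 4.

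In code B, RN7SK, RN7SL1, RN7SL2, RMRP and SCARNA2 were lower than Control 2 in 5 of 5 ligand libraries, as were 27.4% of all tested genes, and RPPH1 was lower in 4 of 5. In code C, RN7SK, RN7SL1, RMRP and SCARNA2 were lower than Control 3 in 4 of 4, as were 20.8% of genes, RPPH1 in 3 of 4 and RN7SL2 in 2 of 4. Each of these counts rests on 1 Control library, and lying wholly on one side of it was common among all genes.

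The other RNA classes show what else was high in Control 2. As reads in 1000000 counted reads (RPM), the 7 RNAs were at 560 RPM in Control 2, at 374 in Metamorphine 2 and at 13.3, the lowest, in Morphine 3. MALAT1, a long nuclear RNA that ends in a triple helix in place of a poly(A) tail, was at 1514 RPM in Control 2 and at most at 285 RPM elsewhere. NEAT1, the scaffold of paraspeckles, was at 625 RPM against at most 432 RPM. In RPM, Control 2 was also the highest library for the summed snRNA, snoRNA, scaRNA, Y RNA, rRNA and mitochondrial rRNA genes and for the pseudogenes of RN7SL and RN7SK. Pseudogenes of RN7SL came to 69.3 RPM in Control 2, against at most 42.2 RPM elsewhere. Control 2 was highest for the summed lincRNA genes too, but that sum holds MALAT1, NEAT1 and the genes FP236383.3 and FP236383.2 named below. It is therefore not a separate class, and the rank of Control 2 without these genes was not worked out. On the TMM-scaled values of the heat map, TRV130 1 was instead the highest for mitochondrial rRNA, at 1.11 against 0.97 in Control 2 (log2 against the median library), and for snoRNA genes, at 0.35 against 0.33.

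Other classes did not follow. Replication-dependent histone genes, whose mRNAs also lack a poly(A) tail, ranked 10 of 18 by RPM in Control 2, ribosomal protein genes 15 and nuclear protein-coding genes 17. Metamorphine 2 was far above the median in the 7SL genes, RN7SL3 included (12.3 RPM), but had 208 RPM of MALAT1 and 2.11 RPM of rRNA genes, within the range of the other libraries. What part these classes have in the levels of the 7 RNAs was not tested.

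**Figure D4:**
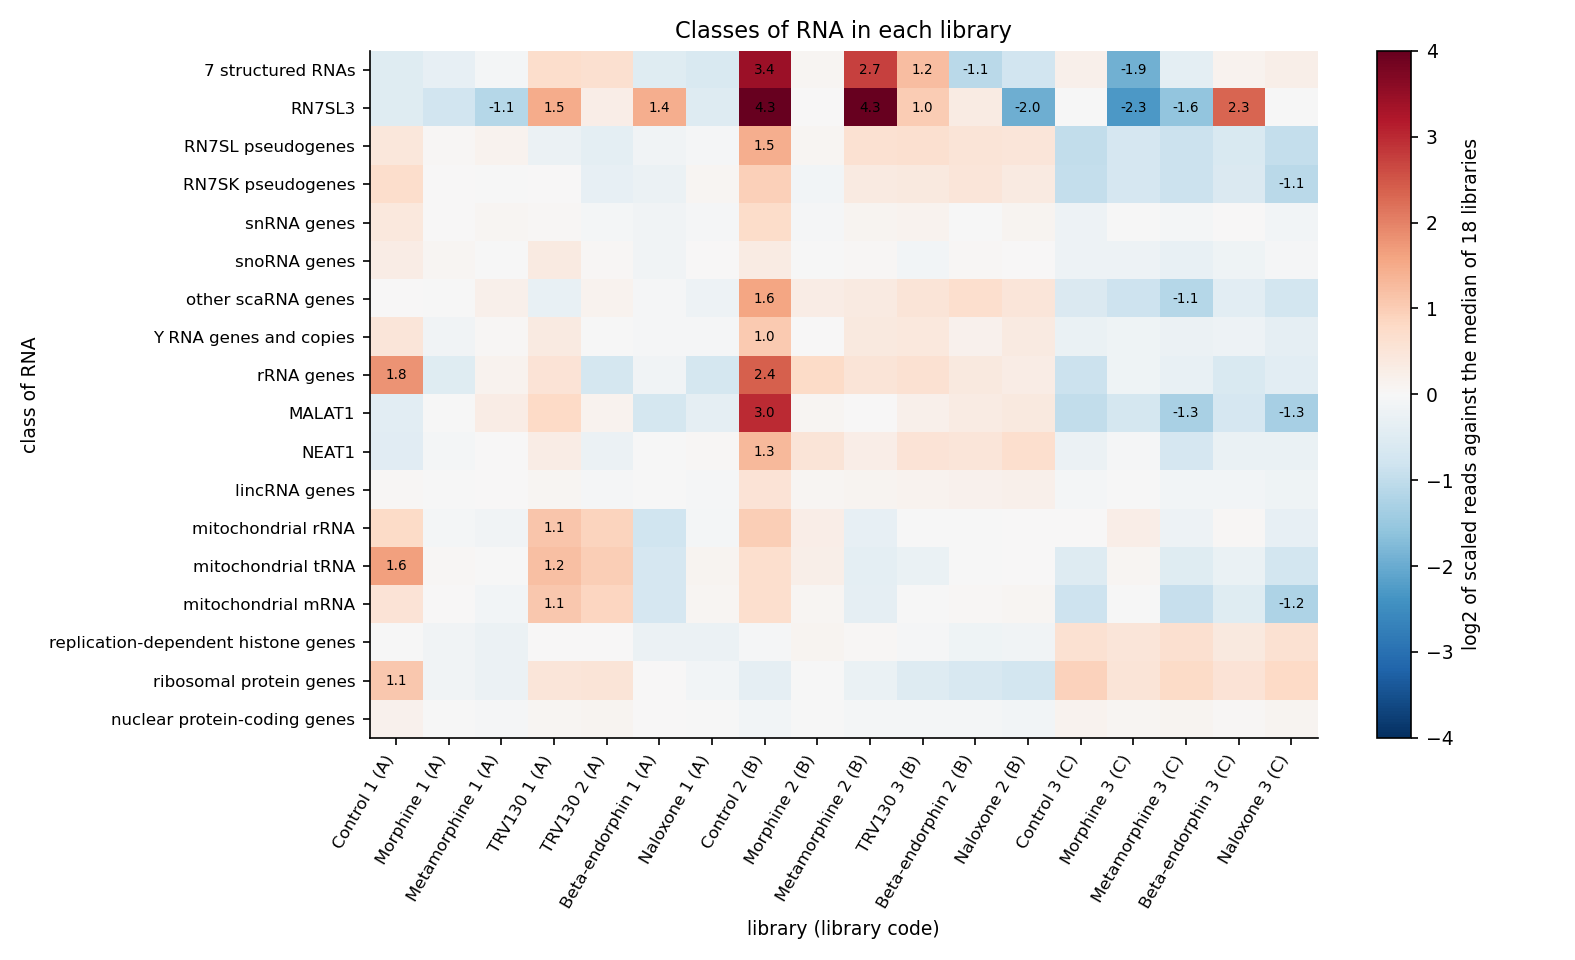
Reads of each RNA class in each library against the median of 18 libraries, as log2 of scaled reads; columns are libraries ordered by code, rows are classes, red is above and blue below the median, and values of at least 1 in size are printed. Control 2 is red in the structured RNAs, rRNA genes and MALAT1, and Metamorphine 2 mainly in the 7 RNAs and RN7SL3.

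Genes with a pattern like RN7SK were ranked by Pearson's r of log2 CPM over the 18 libraries, which share depth and codes, and r is given without a p. The closest gene was FP236383.3, a noncoding gene at chr21:8437629-8438551 on the minus strand, 1272 bases from a copy of RNA5-8SN2, a small ribosomal RNA gene on the opposite strand. Its r was 0.84, and 0.77 without Control 2. It stood at 334 CPM in Control 2 and at 74.9 CPM or less elsewhere. FP236383.2 (0.82), UNC5B-AS1 (0.81), RNA5-8SN3 (0.73) and AC004980.1 (0.73) came next among noncoding genes. Without Control 2 these were at 0.74, 0.66, 0.50 and 0.78. FP236383.2, at chr21:8393419-8394341 on the minus strand, also lies near a copy of RNA5-8SN2. Whether FP236383.3 and FP236383.2 share reads was not tested, so they may not count as separate genes here.

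Among protein-coding genes the closest were FBXO17 (0.76), CYP20A1 (0.75), TFB1M (0.74), CRLF3 (0.71) and ZNF7 (0.68). Without Control 2 these 5 were at 0.60, 0.55, 0.75, 0.56 and 0.35. The most negative values were those of ZNF516-DT (-0.79), DLC1 (-0.74) and DENND2C (-0.72). Of the other structured RNAs, RMRP was closest to RN7SK (0.72), followed by RN7SL1 (0.65), SCARNA2 (0.57), RN7SL2 (0.57) and RPPH1 (0.54). Without Control 2, RN7SL2 was at 0.31 and SCARNA2 at 0.29, whereas RPPH1 was at 0.58. MALAT1 went from 0.50 to 0.01.

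The mRNAs of proteins that bind these RNAs, work with their particles or transcribe them are called partners here. Their fold changes are given from the fit on all libraries. Their range cannot be weighed against that of the structured RNAs, which were chosen with their library levels in view. The fold changes of most structured RNAs also moved when Control 2 was left out, and no such fit is given for the partners. In the 5 comparisons with Control, the values of all tested partner genes lay between -0.76 and 0.62 on the log2 scale, and none was called by edgeR. For 7SK, 14 of 15 listed genes of its particle and of P-TEFb were tested, and their median was between -0.05 and 0.03 in each comparison. DDX21, a helicase that releases P-TEFb from 7SK, was at 0.52 with morphine, 0.55 with metamorphine, 0.14 with TRV130, 0.55 with beta-endorphin and 0.58 with naloxone. CCNT1, the cyclin of P-TEFb, was at 0.04 to 0.36, its kinase CDK9 at -0.22 to 0.00 and the inhibitor HEXIM2 at -0.73 to -0.39.

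All 8 genes of the signal recognition particle and its receptor were tested. SRP72, which binds 7SL together with SRP68, was at -0.16 with TRV130 and at 0.25 to 0.36 with the other ligands, and SRP68 was at -0.09 to 0.13. The receptor genes SRPRA and SRPRB lay between -0.18 and 0.17. Control 2 was the highest library for 0 of these 8 genes, where it was the highest for 12.6% of all tested genes. It was the highest for both 7SL genes.

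Of the 11 proteins of RNase P and RNase MRP, 9 to 10 had values below 0 against Control, with medians from -0.37 to -0.21, while the median of all genes was between -0.04 and -0.02. RPP21 was at -0.66 with morphine, -0.76 with metamorphine, -0.30 with TRV130, -0.70 with beta-endorphin and -0.72 with naloxone, and POP5 at -0.49 to -0.25. RPP14 and POP1, the largest subunit, lay between -0.21 and 0.21. Control 1 was the highest library for 5 of these 11 genes, as it was for 20.4% of all tested genes.

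The 17 genes of small Cajal body particles and the 33 of RNA polymerase III and its factors had medians between -0.20 and -0.03. SMN1, which helps assemble spliceosomal particles, was at -0.73 with metamorphine and beta-endorphin, and its reads may be shared with the near-identical SMN2. The core protein NOP56 was at -0.40 to 0.04, GEMIN4 at 0.09 to 0.32 and GEMIN5 at 0.11 to 0.31. For RNA polymerase III, GTF3C4, a subunit of the factor TFIIIC, was at 0.15 to 0.62, POLR3D at 0.00 to 0.37, BRF1 at -0.29 to 0.10 and BRF2, which serves the promoters of 7SK and of RNase P RNA, at -0.42 to -0.11. In these 5 lists the median SD of log2 CPM over the libraries was 0.21 to 0.36. RPPH1, the steadiest of the 6 RNAs, had an SD of 0.79, but at a far lower level. The tested genes of the lists were at 3.62 CPM or more in the mean, and RPPH1 at 0.35 CPM. RPPH1 was close to 0.75, the median SD of tested genes with a mean of 8 to 13 reads. RMRP and SCARNA2 are low as well, so their spread is not compared at like levels either.

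**Figure D5:**
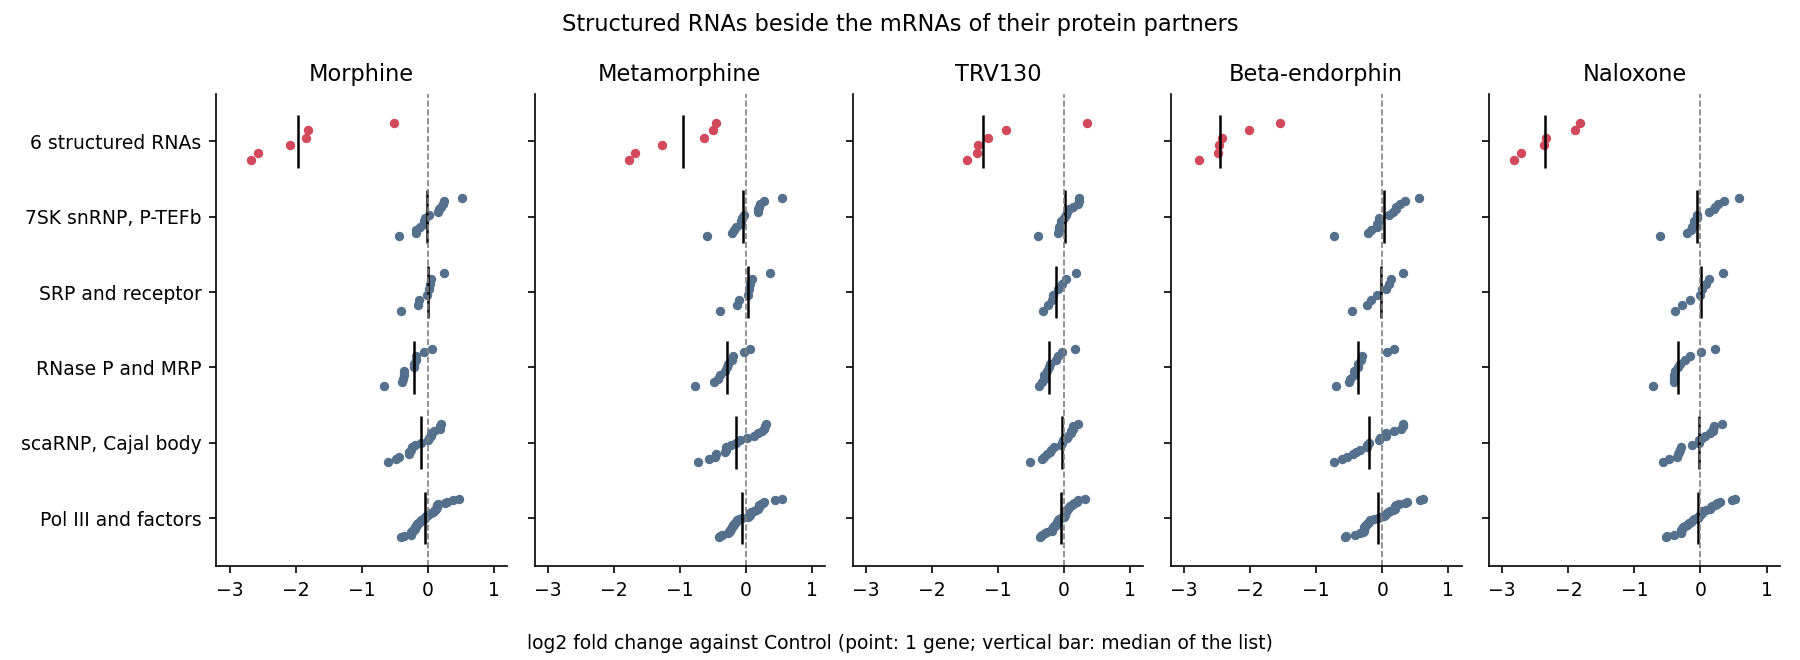
Log2 fold change against Control of the 6 tested structured RNAs (red) and of the mRNAs of their protein partners (grey-blue), 1 panel per ligand; 1 point is 1 gene and the vertical bar is the median of the list. All values are from the fit on all libraries, which keeps Control 2. The protein genes lie within -0.76 and 0.62. The structured RNAs reach -2.83, but they were chosen with their library levels in view, so the ranges are not compared.

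Other structured RNAs were mostly at low counts. Of 40 further names (spliceosomal, nucleolar, Y, vault and telomerase RNAs among them), 39 were in the table, 8 had 0 reads in all libraries, 7 were tested and 4 were above 1 CPM in the mean. These 4 were SNORD10 (3.02 CPM), RNU7-1, the U7 RNA of histone mRNA processing (2.77 CPM), RN7SL3 (1.91 CPM) and SNORD118 (1.59 CPM). SNORA73A and SNORA73B were at 0.332 and 0.284 CPM. Against Control, 5 to 7 of the 7 tested had values below 0 with each ligand, with medians from -0.73 to -0.13, and none was called. Control 2 was the highest library for 3 of these 7 (12.6% of all tested genes). The values keep Control 2, and no fit without it is given for them.

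Of 27 small Cajal body RNAs, 22 were in the table and 8 were tested, SCARNA2 among them. SCARNA12 was highest at 2.37 CPM, ahead of SCARNA16 (0.856 CPM), SCARNA13 (0.714 CPM), SCARNA17 (0.641 CPM), SCARNA9 (0.606 CPM) and SCARNA2 (0.499 CPM). Control 2 was the highest library for 3 of the 8 tested (12.6% of all tested genes): SCARNA17 (3.54 CPM), SCARNA9 (3.05 CPM) and SCARNA2 (2.30 CPM). Against Control, 5 to 7 of the 8 had values below 0 with each ligand in the fit that keeps Control 2, and none was called.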

How the data were processed

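The authors deposited a table of raw read counts per Ensembl gene for the 18 libraries. The tools named, per the submitters' processing notes, are HISAT2, featureCounts, FastQC and DESeq2, with the build GRCh38 (hg38). How reads in overlapping genes or with several matches were counted is not given in the sources used here, nor are versions. RN7SK and the overlapping row 7SK had equal counts in all 18 libraries, so reads there were counted in both rows. TRIzol extraction, DNase I treatment and unstranded sequencing of paired 150 bp reads are stated per the labels' protocols.

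Symbols and positions came from GENCODE 29. The table's 58735 IDs were tested in edgeR 4.0.16 (R 4.3.3) with TMM scaling, a minimum count of 10, 1 mean per group over all 18 libraries and a robust quasi-likelihood fit, two-sided, adjusted over 23231 genes at 0.05. The scripts were tested on simulated data. Log2 CPM used a prior count of 2. DESeq2 1.42.0, other scalings, no filter, only the 2 compared groups, blocks and leaving out libraries were alternatives; DESeq2's p-values were left missing where it gave none.

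The 7 RNAs and all lists were chosen with earlier results of these data known. Named besides the 7 were the 4 genes of each protein list with the smallest p for any group difference, the structured RNAs with the highest mean CPM, and the genes most like RN7SK. MALAT1, NEAT1, RN7SL3 and FP236383.3 were described further after their values were seen.

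Groups share replicate numbers. Same-numbered libraries deviated together, with every pair's correlation over 0.1, in 4 of 9 comparisons: naloxone against Control and metamorphine, beta-endorphin and naloxone against morphine. The labels do not say that a number marks a shared batch. One cell type marker, left out of its list's count and sum, and some sequences are not reported here.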

Additional observations from a re-analysis of the deposited data

Results flagged for a closer look

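RN7SK in Control 2, at 21.9 CPM, stood apart from the other 5 libraries of code B. RN7SL2 in Morphine 3, at 4.66 CPM, stood apart from the other 4 of code C, and so did SCARNA10 in Beta-endorphin 3, at 0.0807 CPM, which is 2 reads where the other 4 libraries have 0. Each was flagged because its gap to the nearest library took up most of the range of its code. Of 21 such checks 3 were flagged. Nothing is read from that count, because the RNAs were chosen with these levels in view. RN7SL1 and RN7SL2 were also checked separately although the split of their reads is uncertain. For SCARNA10 in code C, with 4 libraries at 0 reads, any read in the remaining library would be flagged.

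RMRP lay on opposite sides of the Control library in different codes. In code A all 6 ligand libraries were above Control 1 (as 34.7% of all tested genes), with a median difference of 2.02 in log2 CPM. In code B all 5 were below Control 2 (median -3.07; 27.4% of genes), and in code C all 4 were below Control 3 (median -0.67; 20.8% of genes). Control 1 had 0 RMRP reads, so the size of the code A difference depends on the prior count of 2 and is no estimate of a fold. The code A count includes TRV130 1 and TRV130 2, and without them RMRP was above Control 1 in 4 of 4. The difference between codes was not tested.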

How the results depend on the processing

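Of 1498 recomputed fold changes (54 values under up to 28 settings), 1455 kept their direction and their side of the threshold, and 43, in 21 of the 54, turned sign. No value passed the threshold under any setting, and 0 of the 6 RNAs were called under each. Other scalings, filters and DESeq2 turned 0. The cause of the turns listed here was not tested, beyond the library left out in each.

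Leaving out 1 library at a time gave the ranges that follow, in log2 fold change. With metamorphine against Control they were -2.39 to 1.54 for RN7SL1, -2.29 to 1.81 for RN7SL2 and -1.84 to 0.44 for RMRP. With TRV130 against Control they were -1.42 to 0.64 for RN7SK, -1.82 to 0.87 for RN7SL1, -1.65 to 1.15 for RN7SL2, -1.92 to 0.38 for RMRP and -0.31 to 0.60 for RPPH1. The upper ends are those without Control 2, except RPPH1, whose lower end is without TRV130 1. Metamorphine against morphine ranged from -0.19 to 0.34 for RN7SK, from -0.42 to 0.40 for RPPH1 and from -0.18 to 0.68 for SCARNA2. Beta-endorphin against morphine ranged from -0.26 to 0.48 for RN7SL1, from -0.22 to 0.78 for RN7SL2 and from -0.82 to 0.55 for SCARNA2. Naloxone against morphine ranged from -0.17 to 0.60 for RN7SL1, from -0.12 to 0.87 for RN7SL2 and from -1.04 to 0.45 for RMRP.

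With the replicate number as a block, RPPH1 was at -0.0065 for metamorphine and SCARNA2 at -0.047 for beta-endorphin, both against morphine; with library code as the block they were at -0.010 and -0.029. The block changed no call. With library code as the block and all libraries kept, the medians of the 6 RNAs against Control were closer to 0. They were -1.86 with morphine, -0.86 with metamorphine, -0.60 with TRV130, -1.82 with beta-endorphin and -1.83 with naloxone. Without the block they were -1.96, -0.95, -1.23, -2.45 and -2.36. The main fit does not adjust for the codes, which TRV130 and Control hold in unlike numbers. The code block with Control 2 left out, chosen after seeing the data, turned 14 values. With morphine against Control, RN7SK was at 0.21 and RMRP at 0.20. With metamorphine, RN7SK was at 0.23, RN7SL1 at 1.01, RN7SL2 at 1.17 and RMRP at 0.92. With TRV130 these 4 were at 1.38, 0.71, 0.85 and 0.87, and with naloxone RMRP was at 0.11. Against morphine, RPPH1 was at -0.017 with metamorphine, SCARNA2 at -0.0062 with beta-endorphin and RMRP at -0.089 with naloxone.

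Between codes, log2 of the summed CPM of the 7 RNAs put code B 1.03 above A and code C at -1.28 against B. Code C minus B ranged from -0.74 to -0.10 when libraries were left out, the latter without Control 2. RMRP, RPPH1, SCARNA2 and SCARNA10 had few reads, which limits their precision, and the spread between libraries limits the others.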
